A study of Homo sapiens with 21 samples.

Results

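KLE cells, a line derived from a human endometrial carcinoma, carried 1 of 2 short hairpin RNAs against the same transcript, MSH3, and the comparison here is between these hairpins, 059 and 062. The members are 6 of the 21 arrays of the series, chosen by their titles: the 3 arrays of shMSH3 hairpin 059, lettered A, B and C, and the 3 of shMSH3 hairpin 062, lettered in the same way. Every probe that the platform annotation ties to 1 gene was read, 30113 of 47323 probes and 20046 genes. The other KLE groups, of 3 arrays each, carried hairpins 543 or 603 against MSH6 or the control hairpin shCTRL; 6 further arrays held controls of the colon cancer line HCT116 and the breast epithelial line MCF10A and served only in the normalization. All 5 KLE groups therefore carry a hairpin, and no KLE array without one was used. The labels do not say whether a line is 1 clone or a pool, whether the arrays of a group came from separate cultures, or what the hairpin sequences are. Each p-value measures the spread between these arrays only, which may be technical.

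MSH3 is a mismatch repair protein that takes part in recognising insertion and deletion loops in DNA, whereas MSH6 takes part in recognising base mispairs and small loops. A short hairpin RNA is processed into a small RNA that guides degradation of a matching transcript. It can also act on other transcripts that match its seed. A pair of hairpins to 1 target is used so that what they share can be told from what each does alone. A difference between them is a difference between groups that share the intended target.

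The cells matched their label as epithelium. KRT8, KRT18, KRT19 and EPCAM, structural and adhesion genes of simple epithelium, and PAX8, EMX2 and WT1, genes of the Mullerian tract, lay above the median of the array on 6 of 6 arrays. CD3E and PTPRC of leukocytes, CDH5 and PECAM1 of endothelium and PDGFRA, PDGFRB and THY1 of fibroblasts lay above it on 0 of 6. CD14 and LYZ of leukocytes did so on 2 and 1 arrays, and VWF of endothelium and DCN of fibroblasts on 6, with DCN at a mean of 7.77 with 059 and 8.22 with 062, about the level of KRT18 (7.94 and 7.84). None of the 19 markers was called between the hairpins. Array medians of the 6 arrays lay between 87.7 and 119 intensity units. The lowest value in the table was 66.3, so background remains in every value and differences of dim probes are understated.

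The letters were not equal. Over 16792 probes, the SD of the log2 difference between arrays of hairpin 059 was 0.384 for A against B, 0.377 for A against C and 0.141 for B against C. In hairpin 062 these SDs were 0.400, 0.392 and 0.124, and with shCTRL 0.344, 0.337 and 0.124. Array A thus stood apart from B and C in each group, and B and C were close to each other. When 059 minus 062 was taken within each letter, the differences of B and C correlated across probes with r = 0.72, whereas those of A correlated with B at -0.04 and with C at 0.02. These r values are over probes, which are not independent, and arrays of a letter may share a batch. Counts below are with the letter as a block. For gene families and the main totals they are also given with B and C of each group averaged into 1 array first, a choice made after the data were seen, and with no block.

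Both hairpins lowered the same dim MSH3 probe, and their arrays overlapped on it. Levels are log2 of the intensity plus 16, after quantile normalization over the 21 arrays, and are given for arrays A, B and C in this order. The dim probe read 7.95, 7.94 and 7.92 with hairpin 059 and 7.76, 8.16 and 8.30 with hairpin 062, against 8.72, 8.80 and 8.65 with shCTRL. The 3 arrays of hairpin 059 lie inside the range of hairpin 062, and all 6 lie below the 3 shCTRL arrays. The difference between the hairpins was -0.14 (SE 0.122, 95% interval -0.39 to 0.12, limma adjusted p = 0.777), beside -0.79 for 059 against shCTRL (adjusted p = 0.00106) and -0.65 for 062 (adjusted p = 0.00803). The brighter MSH3 probe read 13.56, 13.83 and 13.87 with 059 and 13.48, 13.62 and 13.68 with 062, against 13.47, 13.88 and 14.02 with shCTRL. It differed by 0.16 between the hairpins (SE 0.0883, interval -0.03 to 0.34, adjusted p = 0.593). The groups overlap on that probe. MSH6, the target of the other hairpins, read 11.08, 10.83 and 10.79 with 059 and 10.76, 10.73 and 10.82 with 062, a difference of 0.13 (SE 0.133, interval -0.15 to 0.40, adjusted p = 0.818). None of 14 mismatch repair genes was called between the hairpins, and their differences lay between -0.21 and 0.19.

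Beyond the target, the hairpins differed at 279 of 30113 probes (0.927%) with the letter as a block. Of these, 138 probes of 117 genes were higher with hairpin 059 (0.458% of probes) and 141 probes of 124 genes were lower (0.468%). The median size of a called difference was 0.54 log2 units, and 27 probes exceeded 1. The largest rise was 1.95 and the largest fall -1.43. With B and C averaged, 44 probes of 35 genes passed (0.146%), 16 higher (0.0531%) and 28 lower (0.093%), 43 of them among the 279. With no block, 19 passed (0.0631%), 1 higher (0.00332%) and 18 lower (0.0598%), all among the 279. X-linked cancer/testis genes lower with 059 recur in all 3 counts and are described first.

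**Figure D1:**
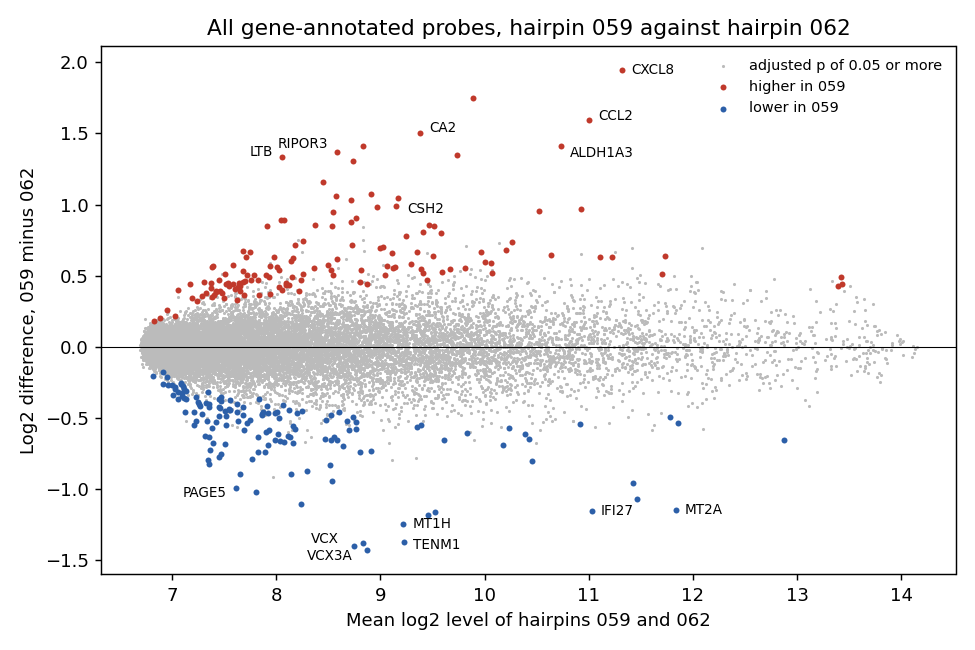
Each point is 1 of 30113 gene-annotated probes, with its mean log2 level over the 6 arrays on the x axis and its log2 difference, 059 minus 062, on the y axis. Coloured points are the 279 called probes, which reach from 1.95 (CXCL8) down to -1.43 (VCX3A).

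VCX genes, germ-cell genes of the X chromosome that healthy tissues other than testis keep silent and some tumours express, were lower with 059 than with 062. Of 13 VCX family probes, 7 fell, from all 4 genes, 6 of them also with B and C averaged and 6 with no block. Of all probes, 0.468% were lower with 059 than with 062, 0.093% with B and C averaged and 0.0598% with no block. In these bulk samples, fewer cells expressing a gene and less of its RNA per cell cannot be told apart. VCX3A read 8.45, 8.02 and 8.02 with hairpin 059 and 9.43, 9.79 and 9.56 with hairpin 062, against 7.78, 7.93 and 7.84 with shCTRL. All 3 arrays of 062 stand above every array of the other 2 groups. The difference was -1.43 (SE 0.132, interval -1.70 to -1.15, adjusted p = 1.54e-06), so the level with 062 was 2.69-fold that with 059. Against shCTRL, 059 differed by 0.31 (adjusted p = 0.405) and 062 by 1.74 (adjusted p = 1.02e-08).

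VCX and VCX3B gave the same picture. VCX read 8.09, 8.01 and 8.03 with 059 and 9.22, 9.54 and 9.58 with 062, against 7.65, 7.84 and 7.82 with shCTRL (059 minus 062 -1.40, adjusted p = 8.78e-07). VCX3B read 8.28, 8.11 and 8.05 with 059 and 9.40, 9.59 and 9.59 with 062, against 7.77, 7.84 and 7.87 with shCTRL (-1.38, adjusted p = 1.06e-06). The control lay elsewhere for VCX2, which read 7.63, 7.77 and 7.66 with 059 and 8.66, 8.99 and 8.73 with 062, against 8.02, 8.67 and 8.32 with shCTRL. Its difference between the hairpins was -1.10 (SE 0.114, adjusted p = 6.83e-06). Hairpin 059 lay -0.65 from shCTRL on VCX2 (adjusted p = 0.00346) and 062 lay 0.45 from it (adjusted p = 0.0585). The hairpin arrays do not overlap for any of these 4 genes, which were named for their large falls. Among all 279 called probes the hairpin arrays overlapped at 59, so a lack of overlap is not particular to VCX.

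The VCX genes are near copies of each other, and their start regions show it. The windows below run from 250 bases before to 50 bases after the annotated start (RefSeq, GRCh38.p14), and capitals mark the longest run that the 3 windows share, 137 bases. VCX3A lies at chrX:6535069-6535368 on the minus strand, VCX3B at chrX:8464580-8464879 on the plus strand and VCX2 at chrX:8171218-8171517 on the minus strand.
VCX3A: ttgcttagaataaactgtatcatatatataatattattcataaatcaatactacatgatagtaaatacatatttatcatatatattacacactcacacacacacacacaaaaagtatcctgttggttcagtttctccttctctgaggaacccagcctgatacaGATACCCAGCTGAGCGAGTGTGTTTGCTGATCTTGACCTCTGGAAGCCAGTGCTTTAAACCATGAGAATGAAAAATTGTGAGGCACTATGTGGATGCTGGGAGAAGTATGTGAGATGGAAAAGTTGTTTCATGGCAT
VCX3B: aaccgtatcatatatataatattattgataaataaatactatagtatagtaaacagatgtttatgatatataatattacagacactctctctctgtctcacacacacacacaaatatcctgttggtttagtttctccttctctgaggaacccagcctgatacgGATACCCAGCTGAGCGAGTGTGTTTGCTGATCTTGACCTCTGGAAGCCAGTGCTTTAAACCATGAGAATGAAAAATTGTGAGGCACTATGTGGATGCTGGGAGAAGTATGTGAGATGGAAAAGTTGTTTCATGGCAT
VCX2: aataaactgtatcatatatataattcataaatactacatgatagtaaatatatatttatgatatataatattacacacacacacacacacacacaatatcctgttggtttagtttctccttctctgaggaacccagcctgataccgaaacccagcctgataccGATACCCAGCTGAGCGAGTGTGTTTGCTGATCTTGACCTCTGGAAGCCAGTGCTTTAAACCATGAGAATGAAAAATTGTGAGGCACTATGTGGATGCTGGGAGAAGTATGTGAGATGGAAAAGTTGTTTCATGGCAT
The windows of VCX3A and VCX3B were 86.9% identical, those of VCX3A and VCX2 85.7% and those of VCX3B and VCX2 83.2%. The table's window for VCX, with another annotated start, shared 48.7% with that of VCX3A and is not shown. Probes of such genes may bind transcripts of more than 1 copy, so the 4 genes are not 4 independent measurements.

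Other X-linked genes fell with them. TENM1, a transmembrane teneurin of cell adhesion in the nervous system, read 8.26, 8.76 and 8.62 with 059 and 9.75, 9.96 and 10.03 with 062, against 9.11, 9.02 and 8.86 with shCTRL. Here the control lies between the hairpins without overlap with either: the difference was -1.37 (SE 0.129, adjusted p = 1.54e-06), with 062 above shCTRL by 0.91 (adjusted p = 0.000352) and 059 at -0.45 (adjusted p = 0.119). The hairpins against MSH6 read 9.50, 9.59 and 9.59 with 543 and 9.35, 9.32 and 9.35 with 603. These also lie above every shCTRL array, so a level above shCTRL was not particular to 062. PAGE5, a cancer/testis gene, read 7.12, 7.15 and 7.08 with 059 and 8.50, 7.89 and 7.92 with 062, against 7.15, 7.34 and 7.22 with shCTRL (-0.99, SE 0.109, adjusted p = 1.63e-05). MAGEA8, of the MAGE family of cancer/testis antigens, read 6.95, 6.95 and 6.96 with 059 and 7.59, 7.77 and 7.87 with 062, against 7.09, 6.98 and 7.09 with shCTRL (-0.79, SE 0.0723, adjusted p = 1.54e-06). Both genes were near the array median of 6.92 with 059 and with shCTRL, and above it with 062.

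For SSX genes, another cancer/testis family of the X chromosome, it was 059 rather than 062 that left the control. Of 19 SSX probes, 8 were lower with 059 than with 062, from 6 of 7 genes, 2 of them also with B and C averaged and 1 with no block. The shares of all probes lower with 059 were 0.468%, 0.093% with B and C averaged and 0.0598% with no block. The SSX probes lower with 059 than with shCTRL numbered 8, and those lower or higher with 062 numbered 0. Over all probes, 0.478% were lower with 059 than with shCTRL, and 0.863% differed with 062. SSX1 read 7.58, 8.41 and 8.20 with 059 and 8.35, 9.34 and 9.31 with 062, against 8.58, 9.21 and 9.28 with shCTRL. The hairpins overlap, since the A array of 062 is below the B array of 059, but 059 is the lower within every letter. The difference was -0.94 (SE 0.116, adjusted p = 7.49e-05), beside -0.96 for 059 against shCTRL (adjusted p = 4.2e-05) and -0.02 for 062 (adjusted p = 0.979). SSX2 read 7.53, 7.60 and 7.46 with 059 and 7.92, 8.47 and 8.41 with 062, against 8.35, 8.15 and 8.53 with shCTRL (-0.74, SE 0.12, adjusted p = 0.00183, and 0.096 with B and C averaged). On the SSX1 probe, the hairpins against MSH6 read 7.96, 8.93 and 8.79 with 543 and 7.65, 8.13 and 7.99 with 603. SSX2 read 7.85, 7.94 and 7.94 with 543 and 7.51, 7.46 and 7.25 with 603. Hairpin 603 was thus about as low as 059 on both genes, and low SSX was not particular to 059. SSX probes, like those of VCX, come from near copies.

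Other cancer/testis families held fewer called probes. In the MAGE-A family 2 of 27 probes were called, 1 of MAGEA8 and 1 of MAGEA10 (-0.58, adjusted p = 0.000953), both lower with 059, and in the PAGE family 2 of 8, both of PAGE5. In each of these families both calls passed with B and C averaged and 1 with no block. The share of all probes lower with 059 was 0.468%, or 0.093% averaged and 0.0598% with no block. The list of the VCX family holds more than the VCX genes. Of its 6 members 5 were lower and 0 higher, with a median difference of -1.24. The 5 are the 4 VCX genes and VCY (-0.46, adjusted p = 0.0011). Of 39 other cancer/testis genes 7 were lower and 1 was higher, MAGEC1 (0.41, adjusted p = 0.0067), 4 of the 8 also with B and C averaged and 2 with no block, and the median was -0.03, beside -0.00085 over 20046 genes read by their brightest probe. By that reading 217 genes were called (1.08%), 105 higher (0.524%) and 112 lower (0.559%).

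GAGE genes, also X-linked cancer/testis genes, fell with both hairpins against shCTRL and were not called between them. Of 13 GAGE probes 0 were called between the hairpins, while 12 were lower than shCTRL with each hairpin. Over all probes, 0.478% were lower than shCTRL with 059 and 0.385% with 062. Between the hairpins 0.927% of all probes were called, so 0 of 13 is near that share. The differences between the hairpins lay between -0.04 and 0.33. GAGE12G read 8.05, 7.94 and 8.03 with 059 and 7.75, 7.68 and 7.60 with 062, against 9.74, 10.02 and 9.93 with shCTRL. All 6 hairpin arrays stand far below the 3 control arrays. The hairpins against MSH6 were low as well, at 7.49, 7.99 and 8.09 with 543 and 6.96, 6.94 and 6.95 with 603, so shCTRL stands apart from all 4 other KLE groups on this probe. Between 059 and 062 it differed by 0.33 (adjusted p = 0.266), although its arrays do not overlap. GAGE12H, at 0.00, was the GAGE member with no difference at 2 decimals.

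**Figure D2:**
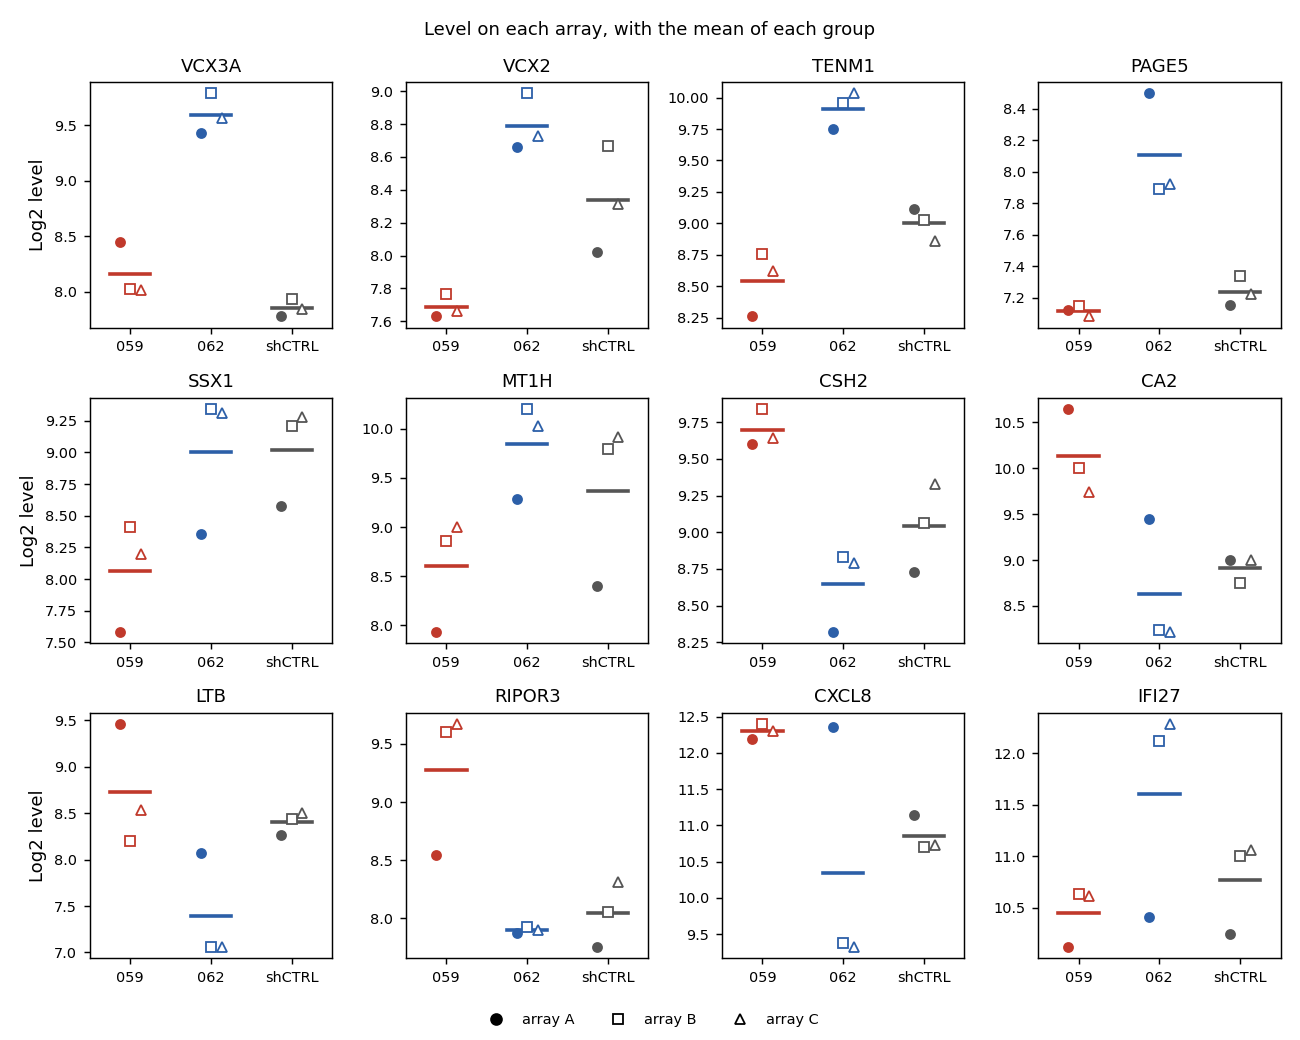
Log2 level of 12 named genes on the A, B and C arrays of hairpin 059, hairpin 062 and shCTRL, 1 panel per gene, each point an array. Filled circles are the A arrays, open squares B and open triangles C, and bars are group means. VCX3A stands high with 062 only, SSX1 stands low with 059 in each letter, and CXCL8 parts the hairpins on arrays B and C but not on A.

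By chromosome, 39 of the 1337 X-linked probes were called (2.92%), 31 lower and 8 higher with 059, and 13 X-linked probes passed with B and C averaged. The next highest share was 1.23%, on chromosome 6. Of the 39, 23 probes (17 genes) belonged to cancer/testis families and 16 probes (14 genes) did not. On chromosome 16 all 11 called probes were lower with 059, and on chromosome 17, 18 of 20 were higher. Those on 16 include the metallothioneins and those on 17 the growth hormone cluster.

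**Figure D3:**
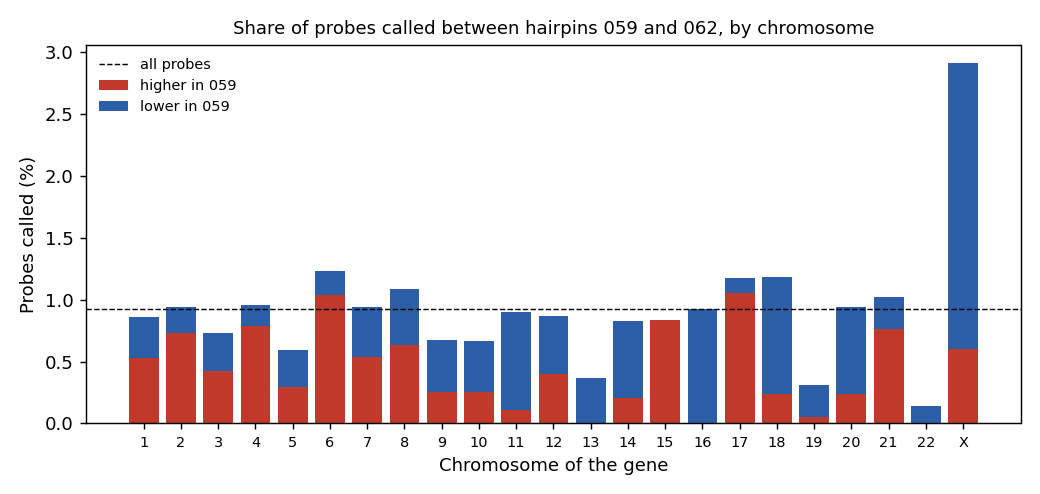
Share of gene-annotated probes called between the hairpins on each chromosome, in percent, split into probes higher and lower with 059. The counts are with the letter as a block; the X chromosome stands at 2.92%, against 0.927% over all probes.

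The growth hormone and placental lactogen genes, 5 neighbouring near copies on chromosome 17 that are normally active in pituitary and placenta, were higher with 059. Of 12 probes 9 rose, from all 5 genes, 7 of them also with B and C averaged and 0 with no block. Of all probes, 0.458% were higher with 059 than with 062, 0.0531% with B and C averaged and 0.00332% with no block. CSH2, a placental lactogen gene, read 9.60, 9.84 and 9.64 with 059 and 8.32, 8.83 and 8.79 with 062, against 8.73, 9.07 and 9.33 with shCTRL. The lowest 059 array lies above the highest array of either other group. The difference was 1.05 (SE 0.138, adjusted p = 0.000186), or 2.07-fold, with 059 above shCTRL by 0.65 (adjusted p = 0.0181) and 062 at -0.39. GH1, pituitary growth hormone, read 9.10, 9.19 and 9.40 with 059 and 7.82, 8.35 and 8.43 with 062, against 8.30, 8.62 and 8.61 with shCTRL (1.03, SE 0.167, adjusted p = 0.00174). CSH1, the other placental lactogen gene, read 9.44, 9.68 and 9.83 with 059 and 8.27, 8.96 and 8.75 with 062, against 8.78, 8.95 and 9.08 with shCTRL (0.99, SE 0.156, adjusted p = 0.00129). Against shCTRL, 7 probes of the cluster were higher with 059 and 0 with 062, beside 0.279% and 0.478% of all probes. The probes may read more than 1 of the copies, as above.

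CA2 and RIPOR3 rose with 059 against shCTRL (1.22 and 1.23) and were not called with 062 (-0.28 and -0.14). CA2, a carbonic anhydrase that interconverts carbon dioxide and bicarbonate, read 10.65, 10.01 and 9.75 with 059 and 9.45, 8.24 and 8.22 with 062, against 9.00, 8.75 and 9.00 with shCTRL. Its difference was 1.50 (SE 0.187, interval 1.11 to 1.89, adjusted p = 8.18e-05), or 2.83-fold, and a second CA2 probe gave 1.41 (adjusted p = 7.73e-05). The second probe was the 1 probe higher with 059 in the fit with no block. RIPOR3 read 8.55, 9.60 and 9.67 with 059 and 7.87, 7.93 and 7.90 with 062, against 7.75, 8.06 and 8.32 with shCTRL (1.37, SE 0.146, adjusted p = 1.08e-05; 2.59-fold). The 059 arrays of both genes lie above all arrays of 062 and shCTRL, and both differences passed with B and C averaged (adjusted p = 0.0213 for CA2 and 0.00976 for RIPOR3). The hairpins against MSH6 read 8.11, 8.65 and 8.50 with 543 and 8.59, 8.98 and 9.11 with 603 on RIPOR3. CA2 read 9.48, 9.32 and 9.20 with 543 and 8.81, 8.70 and 8.92 with 603. Within every letter both were above shCTRL on RIPOR3, and 543 was on CA2. A level above shCTRL was thus not particular to 059.

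SLC2A3, a glucose transporter, MFAP5 and LTB fell with 062 against shCTRL instead (-1.08, -0.88 and -1.01). SLC2A3 read 9.22, 8.96 and 8.88 with 059 and 8.14, 8.03 and 8.05 with 062, against 9.38, 9.08 and 9.01 with shCTRL. Every 062 array lies below all arrays of the other 2 groups, and 059 B and C lie just under the lowest control array: the difference was 0.95 (SE 0.135, adjusted p = 0.000553) (062 against shCTRL adjusted p = 5.82e-05). MFAP5, a component of extracellular microfibrils, read 9.03, 9.67 and 9.66 with 059 and 8.33, 8.40 and 8.40 with 062, against 9.42, 9.18 and 9.16 with shCTRL. Its 062 arrays are the lowest of all 9, while those of 059 lie on both sides of the control arrays. Its difference of 1.07 (SE 0.162, adjusted p = 0.000927) did not pass with B and C averaged (adjusted p = 0.111). LTB, lymphotoxin beta, a cytokine of the TNF family, read 9.45, 8.20 and 8.53 with 059 and 8.07, 7.06 and 7.06 with 062, against 8.27, 8.44 and 8.50 with shCTRL (1.33, SE 0.216, adjusted p = 0.0017, and 0.0800 with B and C averaged). COL16A1, a collagen, was higher with 059 within each letter although the groups overlap, at 9.97, 8.56 and 8.56 with 059 and 8.69, 7.51 and 7.40 with 062, against 8.27, 8.04 and 7.92 with shCTRL (1.16, SE 0.177, adjusted p = 0.00106, and 0.0517 averaged). Hairpin 603 against MSH6 read higher still, at 11.06, 9.52 and 9.88, and 543 read 8.89, 8.21 and 8.29. High COL16A1 was thus not particular to 059. CYBRD1, a membrane ferric reductase, was high with 062, reading 8.32, 9.14 and 9.16 with 059 and 9.20, 10.51 and 10.43 with 062, against 9.12, 9.04 and 9.01 with shCTRL (-1.18, SE 0.198, adjusted p = 0.00228, and 0.138 averaged).

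Metallothioneins, small cysteine-rich proteins that bind zinc, copper and cadmium, were lower with 059 at most of their brighter probes. Of 14 probes of 12 genes 8 lay at or below the array median, and 5 of the 14 were called, those of MT1F, MT1G, MT1H, MT1X and MT2A, all lower. The share of all probes lower with 059 than with 062 was 0.468%. MT1H read 7.93, 8.86 and 9.00 with 059 and 9.29, 10.20 and 10.03 with 062, against 8.40, 9.80 and 9.91 with shCTRL. Its difference was -1.24 (SE 0.15, adjusted p = 6.02e-05), so the level with 062 was 2.36-fold that with 059. MT2A, the most widely expressed of the family, read 10.90, 11.43 and 11.45 with 059 and 12.43, 12.43 and 12.36 with 062, against 11.23, 12.34 and 12.35 with shCTRL (-1.15, SE 0.265, adjusted p = 0.0345). In both genes no hairpin array of 059 reaches one of 062, and the B and C arrays of shCTRL lie with those of 062 or just below them. The hairpins against MSH6 read 7.37, 9.17 and 9.01 with 543 and 7.58, 9.00 and 9.05 with 603 on MT1H. MT2A read 9.70, 11.89 and 11.63 with 543 and 10.05, 11.73 and 11.82 with 603. On A both lay below 059 in both genes. On B and C they lay near 059 on MT1H and between 059 and 062 on MT2A. Low metallothionein levels were thus not particular to 059. The other metallothionein probe above the array median, of MT1E, gave -0.13 and was not called (adjusted p = 0.672). MT1F gave -1.07 (adjusted p = 0.00195), MT1X -0.96 (adjusted p = 0.022) and MT1G -0.89 (adjusted p = 0.00195). MT1H and MT1G passed with B and C averaged, and 0 metallothionein probes passed with no block. Against shCTRL, 1 probe was lower with 059, that of MT1H at -0.77 (adjusted p = 0.00913), and 0 were called with 062. Over all probes, 0.478% were lower with 059 and 0.863% were called with 062.

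The promoters of these genes carry metal response elements, the sites through which the zinc-sensing factor MTF1 acts. The windows below (RefSeq, GRCh38.p14, as above) show the cores TGCACNC and TGCGCNC, searched on both strands, in capitals; no matches overlap. MT2A lies at chr16:56608334-56608633, MT1H at chr16:56669564-56669863 and MT1X at chr16:56682220-56682519, all on the plus strand.
MT2A: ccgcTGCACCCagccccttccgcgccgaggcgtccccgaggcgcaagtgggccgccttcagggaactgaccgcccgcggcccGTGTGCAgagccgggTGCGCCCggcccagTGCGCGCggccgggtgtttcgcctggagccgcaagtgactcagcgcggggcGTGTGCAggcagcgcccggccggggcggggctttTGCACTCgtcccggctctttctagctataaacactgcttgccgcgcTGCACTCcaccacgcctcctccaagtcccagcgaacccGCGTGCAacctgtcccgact
MT1H: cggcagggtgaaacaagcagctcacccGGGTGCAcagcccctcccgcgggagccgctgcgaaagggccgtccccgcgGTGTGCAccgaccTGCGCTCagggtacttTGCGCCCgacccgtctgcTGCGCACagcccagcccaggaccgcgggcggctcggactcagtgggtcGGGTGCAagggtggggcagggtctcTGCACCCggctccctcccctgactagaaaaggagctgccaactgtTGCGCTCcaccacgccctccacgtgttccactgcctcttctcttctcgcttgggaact
MT1X: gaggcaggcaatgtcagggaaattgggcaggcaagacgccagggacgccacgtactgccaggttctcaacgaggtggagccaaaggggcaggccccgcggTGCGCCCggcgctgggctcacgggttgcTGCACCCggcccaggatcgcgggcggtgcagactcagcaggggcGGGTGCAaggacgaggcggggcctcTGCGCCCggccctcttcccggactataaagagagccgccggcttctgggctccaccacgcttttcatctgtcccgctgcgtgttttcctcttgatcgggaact
MT2A and MT1H held 8 cores each and MT1X 4. Of 35116 start windows of the same length, 29.6% held at least 1 core and 0.162% held 5 or more. A match describes the letters and does not show that a site was in use.

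The chemokine genes CXCL8 and CCL2 gave the largest rises, and these stood mostly on B and C. Not every cytokine gene split in this way. LTB, described above, rose by 1.39 in A, 1.14 in B and 1.47 in C. The chemokine gene CXCL10 was higher by 0.72 (adjusted p = 0.0137). With B and C averaged its difference was 0.74 and not called (adjusted p = 0.111). CXCL8, the neutrophil chemoattractant interleukin 8, read 12.19, 12.39 and 12.30 with 059 and 12.36, 9.37 and 9.32 with 062, against 11.14, 10.70 and 10.73 with shCTRL. Within letters the difference was -0.17 in A, 3.02 in B and 2.98 in C. The A array of 062 therefore lies among the 059 arrays, while its B and C arrays are the lowest of all 9. The fitted difference was 1.95 (SE 0.369, adjusted p = 0.0076; 3.85-fold), and with B and C averaged it was 1.42 and not called (adjusted p = 0.548).

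CCL2, a monocyte chemoattractant, had the same shape with a smaller gap in A. It read 11.91, 11.77 and 11.72 with 059 and 11.35, 9.62 and 9.65 with 062, against 11.04, 11.37 and 11.44 with shCTRL (1.60, SE 0.327, adjusted p = 0.015; 0.497 averaged). CCL20, a chemoattractant of dendritic cells and lymphocytes, read 9.07, 9.12 and 9.12 with 059 and 8.56, 7.75 and 7.82 with 062, against 8.55, 8.58 and 8.64 with shCTRL (1.06, SE 0.171, adjusted p = 0.00169; 0.208 averaged). TNFAIP3, the A20 feedback inhibitor of NF-kB, read 7.96, 8.16 and 8.12 with 059 and 7.87, 7.20 and 7.16 with 062, against 7.57, 7.54 and 7.66 with shCTRL (0.67, SE 0.13, adjusted p = 0.00971; 0.465 averaged). These 4 were the called members of the 23 genes in the list of NF-kB targets and cytokines, with 0 lower, reading each gene by its brightest probe. By that reading 1.08% of all genes were called, 0.524% higher and 0.559% lower. None of the 23 passed with B and C averaged or with no block. A dimmer probe of CCL5, a T cell chemoattractant in the list, was lower with 059 (-0.42, adjusted p = 0.0402), and its brightest probe was not called (-0.20). The list median was 0.05, and IL6, IL1B and NFKB1, classical members, lay at 0.05, 0.03 and -0.03.

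ALDH1A3, which makes retinoic acid, and EDN1, the precursor of the vasoconstrictor endothelin, split by letter in the same way. ALDH1A3 read 11.67, 11.39 and 11.25 with 059 and 11.44, 9.35 and 9.31 with 062, against 10.58, 10.43 and 10.35 with shCTRL (1.41, SE 0.266, adjusted p = 0.00714; 0.483 averaged). EDN1 read 9.73, 9.26 and 9.19 with 059 and 9.19, 7.59 and 7.47 with 062, against 8.44, 8.53 and 8.67 with shCTRL (1.31, SE 0.238, adjusted p = 0.00508; 0.350 averaged). In both genes the A array of 062 overlaps the 059 arrays.

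**Figure D4:**
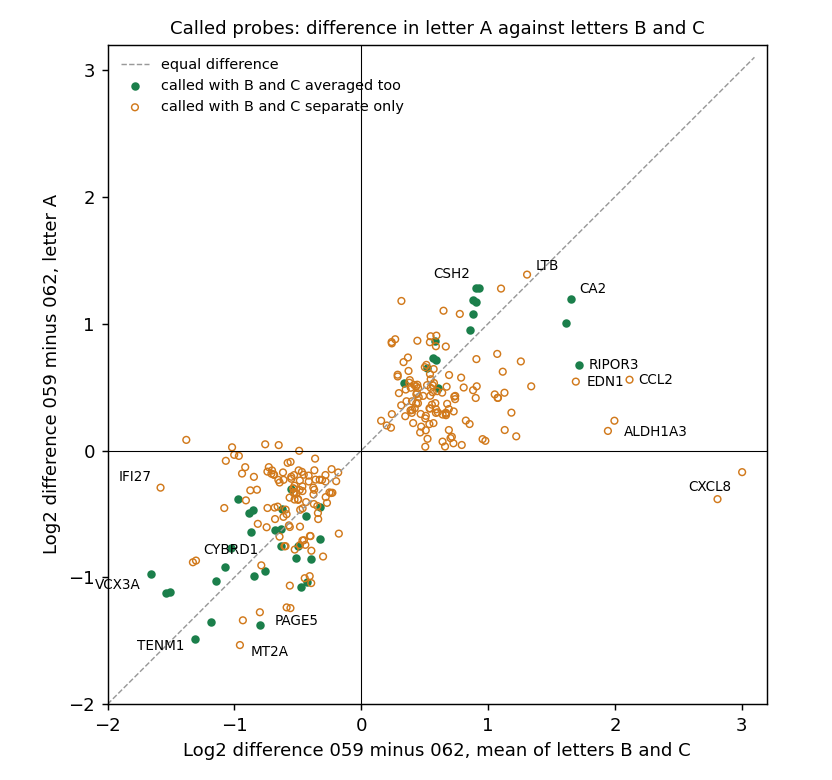
Log2 difference, 059 minus 062, as the mean of letters B and C (x axis) against letter A (y axis), 1 point for each of the 279 called probes. VCX3A lies below 0 on both axes, whereas CXCL8, with 3.02 in B and 2.98 in C, lies at -0.17 in A.

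Interferon-stimulated genes had medians of opposite sign in A and in B and C. Of 40 members 2 were called, IFI27 and MX2, both lower with 059. Read by the brightest probe, 0.559% of all genes were lower. None of the 40 passed with B and C averaged or with no block. The median difference of the 40 was -0.28. Within letter A the median was 0.25, with 35 members higher with 059; within B it was -0.57 and within C -0.53. IFI27, a mitochondrial interferon-induced protein, read 10.12, 10.63 and 10.61 with 059 and 10.41, 12.12 and 12.28 with 062, against 10.24, 11.01 and 11.06 with shCTRL (-1.15, SE 0.198, adjusted p = 0.00295, and 0.337 averaged). Its A arrays lie close together and its B and C arrays of 062 stand above all others. A fit of letters B and C alone called 29 of the 40 lower with 059 and 0 higher, where it called 3.7% of all probes lower. Against shCTRL 8 of the 40 were higher with 062 and 0 with 059, with medians of 0.44 and 0.16. Over all probes, 0.478% were higher with 062 and 0.279% with 059.

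The fit of B and C alone reached 2121 probes in all (7.04%), 1007 higher (3.34%) and 1114 lower. Of these, 1008 (47.5%) had the same sign in letter A, which that fit did not use, beside 49.5% of all 30113 probes. Whether B and C are separate cultures was not tested, and that fit was chosen after the data were seen. Of the 279 probes called from all letters, 273 had the same sign in A, B and C. All letters entered that call, which favours equal signs, so this count is not a separate check. In 80 of the 279, the difference in A was under 0.5 times the mean of B and C. Of the 51 probes that differed by more than 1 in letter A, 40 had the same sign in B, 37 in C, and 28 were called.

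Few other lists held a called member, and their counts stand beside the 1.08% called over all genes read by their brightest probe. A single call in a list of 13 to 39 genes is not read as a result about the list. Antigen presentation had 1 of 20, CD74, the class II invariant chain (-0.42, adjusted p = 0.0436), and the unfolded protein and ATF4 response 1 of 20, the serine synthesis enzyme PSAT1 (-0.65, adjusted p = 0.0496). Glycolysis and hypoxia had 2 of 27, the SLC2A3 described above and BNIP3, a mitophagy receptor (0.55, adjusted p = 0.0344). Mesenchymal and matrix genes had 1 of 39, the heparan sulfatase SULF1 (0.60, adjusted p = 0.0317), epithelial junctions 1 of 26, the desmoglein DSG2 (-0.54, adjusted p = 0.0441), and fibroblast markers 1 of 13, MFAP5. Of these single members SLC2A3 alone passed with B and C averaged (adjusted p = 0.0438).

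No member was called in the lists of E2F targets and DNA replication (27 genes, median -0.04), G2 and mitosis (27, -0.12), ribosomal proteins (39, -0.08), p53 targets (22, 0.04), homologous recombination and Fanconi genes (17, 0.01), or oxidative phosphorylation (33, 0.02). E2F targets, too, differed in sign by letter, with medians of 0.17 in A, -0.16 in B and -0.17 in C. Base and nucleotide excision repair (24 genes) held the uncalled gene with the lowest p of the repair lists, OGG1, the glycosylase for oxidised guanine (-0.36, adjusted p = 0.0567). The neighbours of the MSH3 locus (9 genes), cholesterol synthesis (18), DNA methylation machinery (15), small RNA processing (14), basal (14), Mullerian (16) and intestinal epithelium (14), simple epithelial keratins (6), leukocytes (14) and endothelium (12) also had 0 called. Medians of these lists lay between -0.06 and 0.12.

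**Figure D5:**
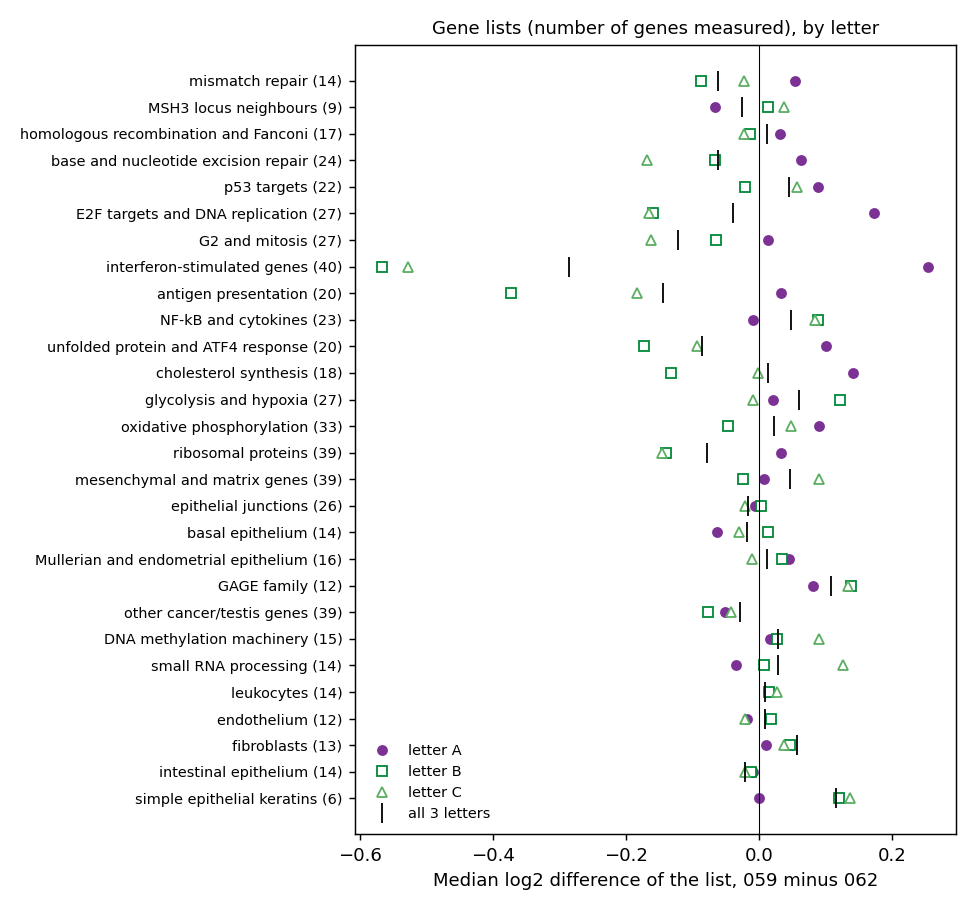
Median log2 difference, 059 minus 062, of each gene list within letters A, B and C (points), with the lists and their numbers of genes on the y axis, bars for the fit over all letters, and the VCX list left out for scale. Interferon-stimulated genes lie at 0.25 in A and at -0.57 and -0.53 in B and C.

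Where the control lay for each called probe was counted next. Hairpin 059 alone differed from shCTRL at 77 of the 279 probes (27.6%), hairpin 062 alone at 54 (19.4%), both at 0 and neither at the other 148. These counts are with the letter as a block. The shCTRL mean lay between the hairpins at 103 of the 138 higher probes (74.6%) and at 106 of the 141 lower ones (75.2%). These comparisons share the shCTRL arrays and the hairpin arrays, so the counts are not independent of each other. The called probes were also chosen for a gap between the hairpins, which itself favours a shCTRL mean between them. No such share over all probes is given, so 74.6% and 75.2% are not read as a result about the hairpins. Over all probes, 059 differed from shCTRL at 228 (0.757%), 84 higher (0.279%) and 144 lower (0.478%). Hairpin 062 differed from it at 260 (0.863%), 144 higher (0.478%) and 116 lower (0.385%). In the same direction with both hairpins were 61 probes of 55 genes, 49 lower and 12 higher. None of the 61 was called between the hairpins, where they differed by a median size of 0.08 and by -0.43 to 0.44. Over all probes 0.927% were called, so 0 of 61 is near that share. Choosing probes changed alike against 1 control also favours a small gap, so this is not read as a result about the 61.

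LAMB3, the laminin chain of epithelial anchoring, was 1 of them, at -1.16 with 059 and -0.73 with 062 against shCTRL. It differed by -0.43 between the hairpins, which was not called (adjusted p = 0.137). LAMB3 read 8.02, 8.76 and 8.80 with shCTRL, 7.60, 8.01 and 7.83 with 543 and 6.83, 7.10 and 7.06 with 603. Within each letter shCTRL thus stood above every other KLE group, so low LAMB3 was not particular to the MSH3 hairpins. Hairpins 543 and 603, both against MSH6, were compared in the same way and differed at 626 probes (2.08%), 427 higher with 543 (1.42%) and 199 lower (0.661%), or at 141 with no block (0.468%). That count and the 279 between 059 and 062 come from 1 fit with the same residual spread, and the difference between the counts was not tested.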

How the data were processed

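The authors deposited 1 table of probe intensity values on a linear scale for 21 arrays, exported with GenomeStudio (its version is not stated), per the submitters' processing notes. RNA was extracted with Qiagen RNeasy and labelled with Cy3, per the labels. All 21 columns were used. Values were transformed here to log2(value + 16), and the 21 arrays were brought to common quantiles.

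Groups were taken from the titles. The 15 KLE arrays were fitted with limma 3.58.1 in R 4.3.3 (lmFit, eBayes with trend), with the replicate letter as a block and 8 residual degrees of freedom, two-sided, and p-values were adjusted by the Benjamini-Hochberg method over all 30113 probes at a threshold of 0.05. The letters pair the arrays: residuals of arrays with the same letter in different KLE groups correlated with a lowest r of 0.603 for A, 0.459 for B and 0.390 for C over 10 pairs each, and between 059 and 062 with 0.637, 0.527 and 0.504. B of 059 with C of 062 gave 0.521 and C with B 0.451, so the residuals set A apart but hardly tell B from C. The block was part of the design.

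Probe genes come from the platform annotation: 17202 probes had no gene and 8 had several, and these were left out. Symbols were checked against a RefSeq gene table, which changed 0 symbols and did not match 39 identifiers. Gene lists read each gene by its brightest probe. Named genes are MSH3 and MSH6, the 12 largest rises and 12 largest falls called with the same sign in all letters, up to 4 called members of each of 29 lists (or the member with the lowest p), and up to 8 genes changed alike against shCTRL. The members and lists were chosen with earlier results of these data known. Gene families, the averaging of B and C, and other genes named were chosen after their values were seen. Of the 241 called genes, 174 had a start window in the RefSeq table. Figures and sequences were made with Python 3.11.15, matplotlib 3.10.9, numpy 2.4.6 and Biopython 1.88. The number of arrays limits the precision.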

Additional observations from a re-analysis of the deposited data

How the results depend on the processing

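Of the 36 named differences that were called, 7 passed in all 17 alternatives tried (VCX3A, VCX, VCX3B, TENM1, VCX2, PAGE5 and MAGEA8) and 0 changed sign. Of the 279 called probes, all kept their sign under median scaling, as deposited and with B and C averaged; the filter on dim probes kept 277 of them and the brightest-probe reading 217, with no change of sign. In the fits with no replicate block, no trend or 6 arrays the estimate is the same by construction. The count of 279 (138 higher, 141 lower) depended most on the letters. With no replicate block it was 19 (1 higher, 18 lower), with B and C averaged 44 (16 and 28), and from B and C only 2121 (1007 and 1114). With only the 6 arrays in the fit it was 90 (45 and 45). Leaving out 1 array in turn gave 97 to 1097 calls, 40 to 476 higher and 57 to 621 lower: without 059 A 255, B 103 and C 124, and without 062 A 1097, B 106 and C 97. Median scaling gave 202 calls, 31 higher and 171 lower (15.3% higher), and the values as deposited 127, 8 and 119 (6.30% higher); these settings move the median of all probes by -0.03 and -0.14. Of the 279, 153 were called under median scaling and 102 as deposited. Against shCTRL, 059 gave 39 calls with no replicate block, 778 with median scaling, 1338 as deposited and 46 averaged, and 062 gave 39, 143, 53 and 32. Hairpins 543 and 603 gave 141 with no replicate block, 206 as deposited and 187 averaged. The brighter MSH3 probe reversed to -0.00615 as deposited and passed at 0.198 from B and C only (adjusted p = 0.0202). MSH6 reversed to -0.0707 with median scaling, -0.184 as deposited and -0.0162 without 062 replicate 1 (range without 1 array -0.0162 to 0.206). Differences that were not called also reversed, as deposited, for MLH3 (-0.033), ATG10 (-0.18), TIGAR (-0.061), CA1 (-0.034), GAGE4 (-0.046), GAGE12F (-0.028), GAGE12C (-0.10), GAGE12B (-0.022), GAGE12H (-0.22) and GAGE2A (-0.088). Median scaling reversed ATG10 (-0.066) and GAGE12H (-0.10). GAGE12H was -0.016 averaged, and without 1 array it ranged over -0.053 to 0.0974, and GAGE2A over -0.012 to 0.158. The cause of these changes was not tested. Other settings (quantiles of linear values or of KLE arrays only, a filter on dim probes, normexp, no trend) gave 245 to 292 calls, and the brightest probe of each gene 226.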

Other observations

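Several called genes belong to no list. The beta-globin locus on chromosome 11, whose globin genes are normally expressed in red cell precursors, held genes lower with 059. Of 6 genes there, chosen after their values were seen, 4 were lower, HBE1, HBG1, HBG2 and the neighbouring olfactory receptor gene OR51B4. HBB (-0.01) and HBD (-0.08) were not called. No other olfactory receptor gene was counted, so 4 of 6 is not a share of the genes at the locus. Of all probes, 0.468% were lower with 059 than with 062. HBE1, the embryonic globin, read 7.18, 7.09 and 7.01 with 059 and 7.67, 7.92 and 7.95 with 062, against 7.26, 7.38 and 7.37 with shCTRL. The difference was -0.75 (SE 0.0829, adjusted p = 1.63e-05), and the 062 arrays stood above all others. HBG1 gave -0.34, HBG2 -0.40 and OR51B4 -0.35. These values are close to the array median of 6.92, and HBE1 alone of the 4 passed with B and C averaged (adjusted p = 0.00514), and 2 of the 4 passed with no block. Against shCTRL, 3 genes of the locus were higher with 062 and 0 with 059, beside 0.478% and 0.279% of all probes.

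The homeobox genes MEOX1 and MEOX2 lay in opposite directions. MEOX1 read 8.83, 8.38 and 8.26 with 059 and 7.88, 7.54 and 7.37 with 062, against 8.60, 8.42 and 8.48 with shCTRL (0.89, SE 0.103, adjusted p = 3.45e-05). MEOX2 read 7.01, 7.06 and 6.95 with 059 and 7.63, 7.55 and 7.71 with 062, against 7.63, 7.10 and 7.32 with shCTRL (-0.63, SE 0.0983, adjusted p = 0.00127). Neither gene had overlapping hairpin arrays, and both passed with B and C averaged.

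Other single genes, chosen after their values were seen, follow. ST8SIA1, the GD3 ganglioside synthase, was lower with 059 at both of its called probes, -0.67 and -0.63 (adjusted p = 0.00069 and 0.000792). The probe with the larger difference read 7.11, 7.02 and 7.06 with 059 and 8.18, 7.47 and 7.55 with 062, against 7.37, 7.07 and 7.17 with shCTRL, so every 062 array was above every other. ST6GALNAC1, the sialyl-Tn synthase, was higher with 059, at 7.80, 7.60 and 7.60 and 7.15, 7.03 and 7.14 with 062, against 7.42, 7.37 and 7.34 with shCTRL (0.56, SE 0.088, adjusted p = 0.00127). The class II gene HLA-DPA1 read 7.03, 7.09 and 7.04 with 059 and 7.33, 7.62 and 7.62 with 062, against 6.96, 7.04 and 7.09 with shCTRL (-0.47, SE 0.0627, adjusted p = 0.000202). TUSC3, a subunit of the oligosaccharyltransferase that attaches N-glycans, read 6.92, 7.03 and 6.89 with 059 and 7.86, 7.72 and 7.72 with 062, against 7.54, 7.51 and 7.66 with shCTRL. Its difference was -0.82 (SE 0.0772, adjusted p = 1.54e-06, and 0.00063 averaged), and its 059 arrays lay closest to the array median. A second TUSC3 probe gave -0.22 and was not called (adjusted p = 0.135).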
